A study of Rattus norvegicus with 12 samples.

Results

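The comparison described here set 4 arrays of rat kidney at embryonic day 18 (E18) against 3 arrays of rat kidney at embryonic day 13 (E13). Its members are all arrays whose titles give either stage, 7 of the 12 in the study. The kidneys were dissected and processed at once, without culture or any treatment. The labels give no strain, sex or genotype, and they do not say whether a replicate was 1 animal, 1 litter or a pool, so the p-values reflect how far these samples vary, part of which may be technical. The other arrays held kidney of 4 weeks after birth (Wk4, n = 3) and a recombined tissue (n = 2), in which unbranched buds grown in vitro were put together with metanephric mesenchyme for 6 days of culture. They are used below for the shared estimate of spread and for levels given side by side. The study set early, late and finished kidney beside the recombined tissue, and took a change of at least 3-fold as its measure.

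The permanent kidney arises from a pair of embryonic tissues. The ureteric bud branches into the collecting duct tree, and the metanephric mesenchyme around each bud tip is induced to condense, turn epithelial and pass through vesicle and S-shaped stages into a nephron, with a glomerulus, a proximal tubule, a loop of Henle and a distal tubule. Cells of the stroma surround both and give rise to interstitium, mesangium and pericytes. Segments gain their transporters late and in order, while new nephrons keep forming at the tips of the outer rim.

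Each array gave a signal, a brightness on a linear scale, for 31042 probe sets besides controls. The deposited arrays share 1 trimmed mean, so a difference between stages in the total RNA of a cell would not show. The medians of the 7 arrays lay between 799 and 948. Genes known from the embryonic kidney were looked at on each array. Wt1, a transcription factor of mesenchyme and podocytes, read 28347, 18456 and 18116 on the 3 E13 arrays and 19823, 18495, 19544 and 15039 on the 4 E18 arrays. Sall1, a zinc finger factor needed for bud invasion, read 11851, 15903 and 7982 at E13 and 18825, 16885, 18682 and 15819.5 at E18, and Pax2, a paired-box factor of bud and mesenchyme, read 4729, 4512 and 2552 and 8470.2, 9095, 8334 and 5689. Eya1 and Ret, given below, were also bright on all 7, while Gdnf, the branching signal, was dim at both stages (299, 621 and 207 and 465, 278, 399.8 and 631). The arrays did not all hold the same sex: Xist, transcribed from the inactive X chromosome, read 29497, 65269.5 and 63033 at E13 and 55.9, 52818, 32.1 and 18.97 at E18, and the Y-linked Eif2s3y read 8536, 9190.0 and 7926 at E13 and 12751, 4.94, 13467 and 19792 at E18. Thus E18 replicate 2 carried Xist without Eif2s3y, E18 replicates 1, 3 and 4 the reverse, and every E13 array carried both. The contrast between stages does not separate sex from stage for these genes. On E18 replicate 2, the array without Eif2s3y, Xist lay within its E13 range. Xist was the 1 called gene of 359 whose stages overlapped. The arrays also fell into sets that cut across stage. After the stage means were taken out, E13 replicate 1 correlated with E18 replicates 1 to 3 across probe sets (r = 0.236, 0.198 and 0.204), and E13 replicates 2 and 3 with E18 replicate 4 (r = 0.324 and 0.300). These correlations are across probe sets, which are not independent replicates. Taking out the stage means makes the deviations cancel within each stage, so the second group of correlations is not independent of the first. The labels give no date or batch for the sets. For genes named below, a call lost without 1 array or within a set is given with its value, Xist aside. Below, the first set is E13 replicate 1 with E18 replicates 1 to 3. The second is E13 replicates 2 and 3 with E18 replicate 4. Each set has only 1 array at one of the stages, so every value within a set rests on that array.

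Differences are given as E18 minus E13 on the log2(signal + 271) scale ± SE; 271 stands at the 25th percentile of the signals of all arrays. Every adjusted p comes from limma fitted over all probe sets. A probe set or gene was called, and is said below to have risen or fallen, when it passed an adjusted p of 0.05 and changed by 3-fold or more. By this measure 437 of 31042 probe sets rose (1.41%) and 90 fell (0.290%). Taken per gene, with the brightest probe set standing for each of 14217 genes, 315 rose (2.22%) and 44 fell (0.309%). At any size of change, 1846 genes (13.0%) passed the adjusted p with higher values at E18 and 809 (5.69%) with lower values. The median difference over all genes was 0.013. The share of all genes that was called is the background against which each list below should be read. Of the 315 genes that rose, 108 had an E13 mean below 271, and the added constant draws in their differences most.

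**Figure D1:**
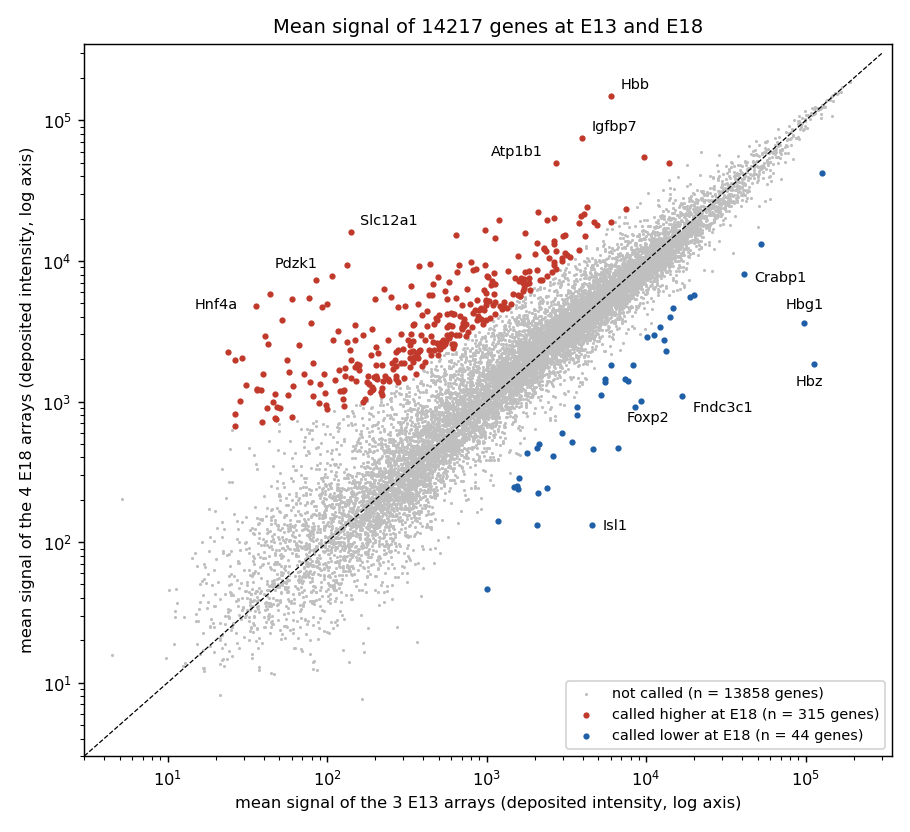
Mean deposited signal of each of the 14217 genes on the 3 E13 arrays (horizontal, log axis) and the 4 E18 arrays (vertical, log axis). Red points are the 315 genes that rose and blue points the 44 that fell; the dashed line marks equal signal, and the called genes on the upper side reach down to E13 means where the arrays show little signal.

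Genes of the mature proximal tubule, which reclaims filtered sugar, phosphate, amino acids and protein, were among those that rose most. Over 5 lists for this segment, 126 genes were measured, 46 rose and 0 fell, and 26 of the 46 had an E13 mean below 271. Hnf4a, a nuclear receptor that acts as a master regulator of the segment, read 46.5, 40.5 and 19.8 at E13 and 5431, 3606, 5469.9 and 4775 at E18. All E13 arrays were near the bottom of the scale and all E18 arrays were bright, for a difference of 4.04 ± 0.14 (adjusted p = 5.55e-10). Of its 3 probe sets, 1 was called. Hnf4a was the 1 of 11 transcription factors of the list that rose, 0 fell, and the list median was 0.295. Maf differed by 0.73 ± 0.10 (adjusted p = 0.000215), Nfe2l2, a regulator of antioxidant genes, by 0.87 ± 0.09 (adjusted p = 1.58e-05) and Ppargc1a, a coactivator of mitochondrial genes, by 0.98 ± 0.14 (adjusted p = 0.000275), all under 3-fold. The lipid-sensing receptor genes Nr1h4 (0.29 ± 0.25) and Ppara (0.02 ± 0.21) and the proliferation factor gene Foxm1 (0.03 ± 0.35) overlapped between stages and did not pass.

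Of 33 measured solute transporters of the proximal tubule, 13 rose and 0 fell, and their median difference was 1.30. Slc34a1, the main sodium-phosphate cotransporter of the brush border, read 385, 178 and 116 at E13 and 8147, 4205, 6614 and 6350.0 at E18. The stages did not overlap, E18 replicate 2 was the lowest of its group, and the difference was 3.73 ± 0.25 (adjusted p = 2.66e-07). The exit route for glucose, Slc2a2, went from 32.0, 93.3 and 31.3 to 4344, 3077, 3639 and 4159 (difference 3.65 ± 0.16, adjusted p = 3.52e-09). The entry routes for glucose had smaller differences. Slc5a2, the high-capacity sodium-glucose cotransporter of the early tubule, rose by 1.73 ± 0.18 (adjusted p = 1.76e-05), whereas Slc5a1, its high-affinity relative of the late tubule, read 81.5, 199 and 59.5 at E13 and 286, 297, 301 and 381 at E18 and did not pass the test (0.63 ± 0.23, adjusted p = 0.102). Slc7a13, an amino acid carrier, rose by 4.42 ± 0.16 (adjusted p = 6.52e-10) and Slc3a1, the heavy chain of the cystine transporter, by 2.62 ± 0.17 from 1159, 2126 and 1464 to 11721, 9429, 11038 and 11481 (adjusted p = 1.36e-07). Slc13a3, a carrier of dicarboxylates such as succinate, rose by 2.88 ± 0.20 (adjusted p = 3.17e-07). Of the organic cation and anion carriers that clear drugs, Slc47a1 rose by 2.17 ± 0.30 (adjusted p = 0.000173), while Slc22a6 (1.55 ± 0.23, adjusted p = 0.000301), Slc22a8 (0.73 ± 0.18, adjusted p = 0.0129) and Slc22a2 (0.40 ± 0.24, adjusted p = 0.335) stayed under 3-fold. Slc22a6 was called without E13 replicate 3 (1.75), E18 replicate 2 (1.68) or E18 replicate 3 (1.59).

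Filtered protein is taken up at the brush border. Of 26 genes of the brush border, endocytosis and its peptidases, 15 rose and 0 fell, with a median of 1.70. Lrp2, which encodes megalin, the large endocytic receptor, read 927, 1217 and 791 at E13 and 17539, 14085, 18122 and 17102 at E18, a difference of 3.77 ± 0.23 (adjusted p = 1.11e-07). Its partner cubilin (Cubn) rose by 3.22 ± 0.22 (adjusted p = 3.17e-07) and amnionless (Amn), which carries cubilin to the membrane, by 3.78 ± 0.13 (adjusted p = 5.55e-10). Dab2, the adaptor that binds megalin inside the cell, was already bright, at 17398, 25729 and 23242 against 24139, 23552, 24753 and 39076, and did not pass the test (0.32 ± 0.17, adjusted p = 0.284). The peptidase Dpp4 read 362, 463 and 307 at E13 and 9222, 6855, 9344 and 11417 at E18 (difference 3.85 ± 0.18, adjusted p = 1.21e-08). Pdzk1, a scaffold that holds transporters in the brush border, read 138, 89.7 and 95.4 at E13 and 8826, 5752, 8340.2 and 8519.7 at E18. No array of one stage came near the other, and E18 replicate 2 again gave the lowest E18 signal (difference 4.41 ± 0.15, adjusted p = 4.76e-10). Anpep (aminopeptidase N), Ggt1 (gamma-glutamyltransferase) and Cltrn (collectrin, a trafficking partner of amino acid carriers) rose by 2.34 ± 0.12, 3.03 ± 0.18 and 2.56 ± 0.27, with adjusted p of 2.86e-08, 7.58e-08 and 2.02e-05. Ace, neprilysin (Mme) and alkaline phosphatase (Alpl), brush border enzymes of the mature kidney, had differences of -0.48 ± 0.22, 0.33 ± 0.17 and 0.30 ± 0.33 and did not pass.

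The promoters of these genes were searched for the letters of 2 sites that the proximal tubule factors HNF4 and HNF1 are known to bind, CAAAGTCCA and GTTAATNAT (N is any base), on both strands. In the RefSeq windows of GRCr8, from 250 bases before to 50 bases after each start, 0.38% of all 27457 promoters held the HNF4 letters and 0.75% the HNF1 letters. For the 11700 promoters of genes measured here these shares were 0.37% and 0.5%. Among 38 promoters of proximal tubule genes that rose, from the lists of transcription factors, transporters, brush border and metabolism, each was found in 3 (7.89%), and among 80 measured promoters of those lists in 3 (3.75%). Of 246 promoters of all genes that rose, 3 (1.22%) held the HNF4 letters and 6 (2.44%) the HNF1 letters. The upstream 250 bases of the 4 with the largest differences among the 6 that held either follow, 5′ to 3′ on the gene's strand, with the match in capitals; they are shown because these genes carry some of the clearest differences between the stages. Pdzk1 lies at chr2:187064745-187064994 on the plus strand with the HNF4 letters 9 bases before the start, Agxt2 at chr2:61063166-61063415 on the plus strand with them 48 bases before it, and Slc3a1 at chr6:15394750-15394999 on the minus strand with them, on the opposite strand, 89 bases before it. Cltrn lies at chrX:34027125-34027374 on the minus strand, with the HNF1 letters 132 bases before the start. A match is a description of the letters in this window and shows no binding.
Pdzk1: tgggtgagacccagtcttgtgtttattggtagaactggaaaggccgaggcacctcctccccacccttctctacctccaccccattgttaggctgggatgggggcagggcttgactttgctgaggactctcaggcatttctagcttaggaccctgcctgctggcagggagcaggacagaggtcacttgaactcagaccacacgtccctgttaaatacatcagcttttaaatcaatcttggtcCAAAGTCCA
Agxt2: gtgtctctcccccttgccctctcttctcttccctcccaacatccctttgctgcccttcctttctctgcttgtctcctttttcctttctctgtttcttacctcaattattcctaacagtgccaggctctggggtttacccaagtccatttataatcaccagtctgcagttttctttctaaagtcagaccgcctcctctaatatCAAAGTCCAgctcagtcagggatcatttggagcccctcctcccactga
Slc3a1: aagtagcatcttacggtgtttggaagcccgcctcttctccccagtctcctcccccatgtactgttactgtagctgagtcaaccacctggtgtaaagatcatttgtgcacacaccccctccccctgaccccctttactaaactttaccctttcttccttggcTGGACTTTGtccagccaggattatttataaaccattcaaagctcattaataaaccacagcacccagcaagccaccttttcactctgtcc
Cltrn: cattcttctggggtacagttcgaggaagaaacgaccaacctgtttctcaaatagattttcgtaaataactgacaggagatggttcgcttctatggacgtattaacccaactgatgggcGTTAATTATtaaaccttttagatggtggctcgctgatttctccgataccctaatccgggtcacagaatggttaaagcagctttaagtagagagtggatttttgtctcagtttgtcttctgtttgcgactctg

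Proximal tubule cells also make glucose, creatine and arginine. Of 25 genes of gluconeogenesis, creatine synthesis and amino acid breakdown, 12 rose and 0 fell, all 25 had a positive difference, and the median was 1.38. Ass1, which makes argininosuccinate on the way to arginine, read 534, 577 and 222 at E13 and 10629.9, 9679, 9609 and 8068 at E18, a difference of 3.81 ± 0.17 (adjusted p = 4.23e-09). Agxt2, an aminotransferase that breaks down methylated arginine, read 228, 53.2 and 19.1 at E13 and 3167, 3494, 5747 and 7327 at E18. Its E18 arrays spread widely, with replicates 1 and 2 low and 3 and 4 high, but all lay above E13 (3.77 ± 0.29, adjusted p = 9.18e-07). The gluconeogenic enzyme genes Fbp1 and Pck1 rose by 3.45 ± 0.28 (adjusted p = 1.5e-06) and 2.34 ± 0.17 (adjusted p = 4.58e-07). For Fbp1, E18 replicate 2 was the low array of a group that read 6975, 2739.8, 5826 and 6492, against 341, 346 and 63.8 at E13. Gatm, the first enzyme of creatine synthesis, rose by 2.64 ± 0.19 (adjusted p = 4.97e-07), although the mean of its probe sets gave 1.43, under 3-fold. Hao2, a peroxisomal hydroxyacid oxidase, rose by 3.61 ± 0.20 (adjusted p = 4.16e-08) and Dao, the D-amino acid oxidase, by 3.06 ± 0.17 (adjusted p = 5.82e-08). Pc (0.41 ± 0.16), the pyruvate carboxylase that feeds the start of gluconeogenesis, did not pass.

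Of 31 enzymes that handle drugs, steroids and lipid signals, 5 rose, 0 fell, and the median was 0.483. At the top was Cyp2c23, the epoxygenase of the rat kidney that makes signalling lipids from arachidonic acid, at 90.1, 49.1 and 42.1 on the E13 arrays and 6893, 3851, 5536 and 5017 on the E18 arrays (4.05 ± 0.22, adjusted p = 4.57e-08). The fatty acid hydroxylase genes Cyp4a1 (-0.24 ± 0.23) and Cyp4a8 (0.12 ± 0.17), and Cyp4b1 (0.48 ± 0.20) of the same family, overlapped between the stages and did not pass. Cyp4a1 and Cyp4a8 stood at 181 ± 112 and 304 ± 30.4 at E18 (SD, n = 4), and at 23849.5 ± 1496 and 78368 ± 4583 at Wk4 (SD, n = 3). Cyp2e1 was higher at E18 by 0.93 ± 0.15 (adjusted p = 0.000673), under 3-fold. Sult1a1, a sulfotransferase, rose by 1.98 ± 0.20 (adjusted p = 1.19e-05), and so did Aldh1a1, an aldehyde dehydrogenase that can make retinoic acid, which went from 9820.4, 10652 and 8617 to 59191, 52236, 55940.4 and 50892 (2.46 ± 0.14, adjusted p = 5.09e-08). Gsta1, a glutathione transferase, rose by 1.93 ± 0.24 (adjusted p = 9.47e-05), but reached 1.44 within the first set of arrays, below 3-fold.

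**Figure D2:**
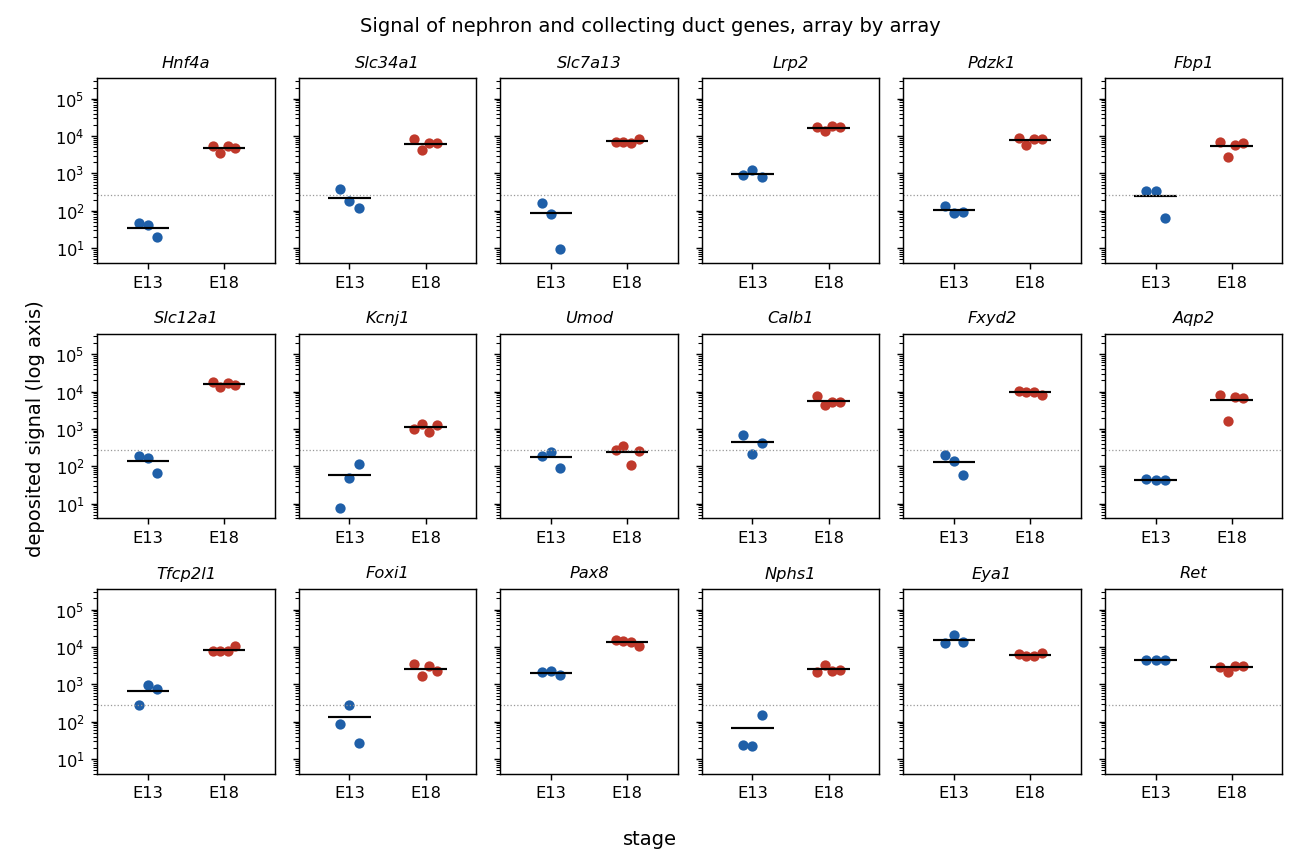
Deposited signal (log axis) of 18 nephron and collecting duct genes on each E13 array (blue, n = 3) and each E18 array (red, n = 4); black bars are means and the dotted line marks 271, the constant added before the logarithm. Stages lie far apart for Hnf4a, Slc12a1, Pdzk1 and Aqp2, while Umod stays below or near 271 at both stages and Ret is slightly lower at E18.

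The thick ascending limb, which dilutes the urine, was marked by the largest rise of all genes measured. Slc12a1, the cotransporter of sodium, potassium and chloride and the target of loop diuretics, read 187, 168 and 67.2 at E13 and 18218, 13511, 16944 and 15293 at E18 (5.31 ± 0.15, adjusted p = 1.14e-10). Of 18 genes of this segment and the macula densa 7 rose and 0 fell, with a median of 1.31. The potassium channel gene Kcnj1, which recycles potassium for that cotransporter, went from 7.42, 49.4 and 113 to 978, 1352, 838 and 1251 (2.06 ± 0.19, adjusted p = 5.55e-06), and Bsnd (barttin), a subunit of its chloride channels, rose by 2.25 ± 0.21 (adjusted p = 5.55e-06). Cldn10, a sodium pore between cells, rose by 2.06 ± 0.16 (adjusted p = 9.88e-07), and Sostdc1, a secreted BMP and Wnt modulator, by 2.28 ± 0.13 (adjusted p = 5.09e-08). Umod, the product that fills mature urine, did not follow: it read 188, 245 and 88.8 at E13 and 270.2, 346, 111 and 252 at E18, the stages overlapped (0.21 ± 0.23, adjusted p = 0.646), and at Wk4 it stood at 136966 ± 8528 (SD, n = 3). Egf, another late product of these cells, differed by -0.01 ± 0.20 (adjusted p = 0.994).

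Of 15 genes of the distal tubule and calcium transport, 3 rose and 0 fell, and the median was 0.232. Calb1, a calcium-binding protein of distal cells, read 683, 218 and 406 at E13 and 7813, 4316, 5281 and 5346 at E18 (3.10 ± 0.21, adjusted p = 2.91e-07). Slc12a3, the thiazide-sensitive cotransporter, was higher at E18 by 1.51 ± 0.27 (adjusted p = 0.00146), just under 3-fold, and was called without E13 replicate 2 (1.67) or E18 replicate 4 (1.71). The calcium channel genes Trpv5 (-0.43 ± 0.21) and Trpv6 (0.07 ± 0.23) overlapped between the stages and did not pass. Klk1, a tissue kallikrein of the connecting tubule, rose by 1.60 ± 0.15 (adjusted p = 6.75e-06), at the limit of 3-fold, and lost its call without E13 replicate 2 (1.54), E18 replicate 2 (1.56) or E18 replicate 3 (1.56), with the set as a covariate (1.52) and within the second set (1.43).

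Of 9 measured sodium pump and accessory genes, 3 rose, 0 fell and the median was 0.72. Atp1b1, the beta subunit that brings the pump to the membrane, went from 2218, 3162 and 2799.9 to 44864, 52034, 47511 and 53427, a difference of 4.06 ± 0.14 (adjusted p = 5.55e-10), and both of its probe sets were called. Fxyd2, the gamma subunit, read 202, 138 and 59.4 at E13 and 10476, 9604, 9624 and 8039.6 at E18 (4.60 ± 0.17, adjusted p = 8.84e-10). Fxyd3, which is found in many other epithelia, differed by 0.84 ± 0.25 (adjusted p = 0.0404), under 3-fold. Fxyd4, the pump regulator of the collecting duct, rose by 1.92 ± 0.30 (adjusted p = 0.000601), with 1.46 within the first set. The other subunit genes Atp1b2 (0.72 ± 0.20) and Fxyd1 (0.53 ± 0.15) were higher under 3-fold, and Atp1b3 (0.24 ± 0.12) overlapped.

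Genes of the ureteric stalk and the principal cells of the collecting duct, which take up sodium and water under hormone control, rose in 14 of 27 cases, and 0 fell; the median was 1.65. Aqp2, the water channel that vasopressin moves to the membrane, read 45.0, 43.9 and 43.0 at E13 and 8106, 1619.7, 6967 and 6619.7 at E18. The E13 arrays agreed closely, and E18 replicate 2 lay far below the other E18 arrays (4.07 ± 0.38, adjusted p = 4.77e-06). The basolateral water channels Aqp3 and Aqp4 rose by 2.48 ± 0.19 (adjusted p = 9.88e-07) and 3.18 ± 0.26 (adjusted p = 1.82e-06), though the mean of 3 probe sets for Aqp4 gave 1.30. Avpr2, the vasopressin receptor itself, was higher under 3-fold (0.90 ± 0.22, adjusted p = 0.0141). Tfcp2l1, a transcription factor of collecting duct maturation, went from 279, 939 and 743 to 7620.2, 7641, 7812 and 10349.9 (3.29 ± 0.23, adjusted p = 3.2e-07). Of the epithelial sodium channel, Scnn1g rose by 1.72 ± 0.26 (adjusted p = 0.00045), with 1.48 without E13 replicate 1, 1.25 within the second set and 0.95 for the mean of its probe sets, while Scnn1a (0.73 ± 0.22) and Scnn1b (0.85 ± 0.21) passed the adjusted p under 3-fold. Hsd11b2, which shields the mineralocorticoid receptor from glucocorticoids, was bright at both stages and did not pass (-0.19 ± 0.14, adjusted p = 0.449).

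Intercalated cells, which secrete acid or base, were represented by 12 genes, of which 4 rose and 0 fell, with a median of 1.25. Foxi1, the transcription factor that sets their fate, read 84.2, 286 and 27.1 at E13 and 3562, 1693, 3055 and 2267 at E18 (2.86 ± 0.31, adjusted p = 2.03e-05). The proton pump subunit genes Atp6v0a4 and Atp6v1g3 rose by 2.26 ± 0.12 (adjusted p = 4.16e-08) and 2.33 ± 0.25 (adjusted p = 2.1e-05); the mean of the probe sets of Atp6v1g3 was 1.36. Rhcg, an ammonia channel, rose by 1.85 ± 0.28 (adjusted p = 0.000396), but by 1.42 without E13 replicate 1 and 1.15 within the second set, below 3-fold. Slc26a4 (pendrin), the marker of base-secreting cells, overlapped between stages (-0.19 ± 0.19, adjusted p = 0.61). Slc4a1, the chloride-bicarbonate exchanger of acid-secreting cells that red cells also carry, differed by 1.11 ± 0.20 (adjusted p = 0.00154), and the pump subunit gene Atp6v1b1 (1.39 ± 0.22) was higher under 3-fold.

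Of 14 genes of the branching bud tip, 1 rose and 0 fell, with a median of 0.26; without E13 replicate 3 or E18 replicate 4 the count was 2, and with the constant 4 times as large it was 0. Ret, the receptor for the branching signal GDNF, read 4512, 4619 and 4522 at E13 and 2914, 2165, 3164 and 3150.0 at E18; the stages did not overlap, and the difference was -0.64 ± 0.16 (adjusted p = 0.0175), under 3-fold. Gfra1, its co-receptor, differed by -0.23 ± 0.21 (adjusted p = 0.565). Wnt11, which tip cells secrete, was dim at E13 (70.4, 54.2 and 115) and read 306, 1040.3, 1082 and 99.2 at E18, where replicates 2 and 3 were high, replicate 1 lower, and replicate 4 within the E13 range (1.16 ± 0.36, adjusted p = 0.047). Lhx1, a homeobox gene used in both bud and early nephron, rose by 1.89 ± 0.32 (adjusted p = 0.00113), with 1.54 within the second set. Emx2, a homeobox factor of the bud, was higher by 1.55 ± 0.14 (adjusted p = 2.89e-06), and called without E13 replicate 3 (1.64) or E18 replicate 4 (1.60). Gata3 (1.15 ± 0.24), a zinc finger factor upstream of Ret, was higher under 3-fold, and Etv4 (0.35 ± 0.39), a target of Ret signalling, overlapped between stages.

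Of 29 claudins, cadherins and other genes of the junctions that seal these epithelia, 9 rose and 0 fell, and the median was 1.16. Cldn8, a barrier claudin of the collecting duct, went from 3762, 4072 and 3838 to 23363, 19435, 21555 and 19007 (2.34 ± 0.11, adjusted p = 1.21e-08), and Cldn2, the sodium and water pore of the proximal tubule, from 202, 238 and 34.1 to 1958, 1677, 1968 and 1696 (2.32 ± 0.18, adjusted p = 8.27e-07). Kidney cadherin (Cdh16) rose by 2.66 ± 0.18 (adjusted p = 2.91e-07) and E-cadherin (Cdh1) by 2.21 ± 0.18 (adjusted p = 1.29e-06), although the mean of the Cdh1 probe sets was 1.16. N-cadherin (Cdh2), used by mesenchyme and early proximal cells, was lower at E18 by a difference of -0.55 ± 0.16 (adjusted p = 0.037), under 3-fold. The early nephron cadherin gene Cdh6 (1.19 ± 0.26) was higher under 3-fold, and Cdh3 (-0.04 ± 0.21) overlapped. Among 21 keratin, uroplakin and basal epithelial genes 5 rose and 0 fell, with a median of 0.705. With the set as a covariate 3 of them rose. Krt7 and Krt8, keratins of simple epithelia, rose by 3.26 ± 0.20 (adjusted p = 1.17e-07) and 2.11 ± 0.10 (adjusted p = 1.27e-08). The basal keratin genes Krt5 (-0.12 ± 0.23) and Krt14 (-0.08 ± 0.26) did not pass. The desmosome genes Pkp2 (plakophilin) and Dsp (desmoplakin) rose by 1.85 ± 0.24 (adjusted p = 0.000101) and 1.80 ± 0.15 (adjusted p = 1.91e-06); Pkp2 reached 1.52 within the first set and 1.56 with the set as a covariate, and the mean of the Dsp probe sets was 0.70.

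Of 20 measured progenitor genes, 0 were called by limma, 4 passed the adjusted p with higher values and 5 with lower values, and the median was 0.059; without E13 replicate 1, 1 gene was called lower. Eya1, a coactivator needed to keep progenitors, read 12618, 20434 and 13448 at E13 and 6488, 5763, 5729 and 7071 at E18, without overlap (-1.24 ± 0.19, adjusted p = 0.000533). Meox1, a homeobox gene, read 4515, 4141 and 3771 at E13 and 1516, 1339.9, 1788 and 1217 at E18 (-1.35 ± 0.19, adjusted p = 0.000228). In the other direction Crym, a thyroid hormone-binding protein, differed by 1.32 ± 0.18 (adjusted p = 0.000177). Crym stood at 7953 ± 1906 at E18 (SD, n = 4) and was higher still at Wk4, at 33595.5 ± 1523 (SD, n = 3). The gene called lower without E13 replicate 1 was Igf2bp1, an RNA-binding protein gene (-1.66), which differed by -1.31 ± 0.28 over all arrays (adjusted p = 0.00596). Sall1 (0.60 ± 0.21) and Hoxd11 (0.09 ± 0.22) did not pass, and Hoxa11 (-0.54 ± 0.11), which with its Hox relatives sets the kidney field, was lower under 3-fold. Six4, a homeobox gene that can work with Eya1, is in no list and is given because it stood out after its values were seen: it fell from 4469, 6616 and 5459.6 to 1311, 1166, 1355 and 1638 (-1.81 ± 0.17, adjusted p = 5.8e-06).

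Of 25 genes of the pretubular aggregate, renal vesicle and early nephron, 8 rose and 1 fell, and the median was 1.34. Pax8, a paired-box factor of nephron epithelium, read 2120.1, 2301 and 1760.1 at E13 and 15633, 14577, 13519.7 and 10349 at E18 (2.56 ± 0.28, adjusted p = 2.34e-05). Irx1, which marks the middle segments of the S-shaped body, rose by 2.95 ± 0.15 (adjusted p = 1.61e-08), with 1.53 for the mean of its probe sets, and Irx3 went from 915, 674 and 1160.2 to 4979.8, 4305, 4155 and 4936 (2.05 ± 0.15, adjusted p = 5.46e-07), with 0.99 for the mean of its probe sets. Pou3f3, a factor of the loop and distal precursor, rose by 2.23 ± 0.22 (adjusted p = 9.64e-06). Wnt4, the signal that turns mesenchyme into epithelium, was higher at E18 by 1.14 ± 0.28 (adjusted p = 0.0143), and Fgf8, which early nephrons need to survive, overlapped between the stages (0.42 ± 0.29, adjusted p = 0.42). The gene that fell was Greb1 (-1.99 ± 0.15, adjusted p = 5.83e-07), for which the mean of the probe sets was -1.07.

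Of 23 podocyte genes, 3 rose and 1 fell, with a median of 0.843. Nphs1, which encodes nephrin of the slit diaphragm, the filter between podocyte feet, read 23.9, 21.8 and 153 at E13 and 2082, 3285, 2294 and 2361 at E18 (3.04 ± 0.28, adjusted p = 4.22e-06). Ptpro, a receptor phosphatase of the podocyte surface, rose by 1.91 ± 0.19 (adjusted p = 1.01e-05). Podxl, the charged coat protein of the foot processes, was higher by 1.15 ± 0.17 (adjusted p = 0.000359), under 3-fold, and Synpo (synaptopodin) overlapped between the stages (0.12 ± 0.13, adjusted p = 0.646). Sulf1, a sulfatase of heparan chains, was the one that fell (-1.92 ± 0.24, adjusted p = 8.13e-05; -1.07 for the mean of its probe sets). In bulk tissue, more cells of a type and more RNA per cell cannot be told apart, which holds for every list here.

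**Figure D3:**
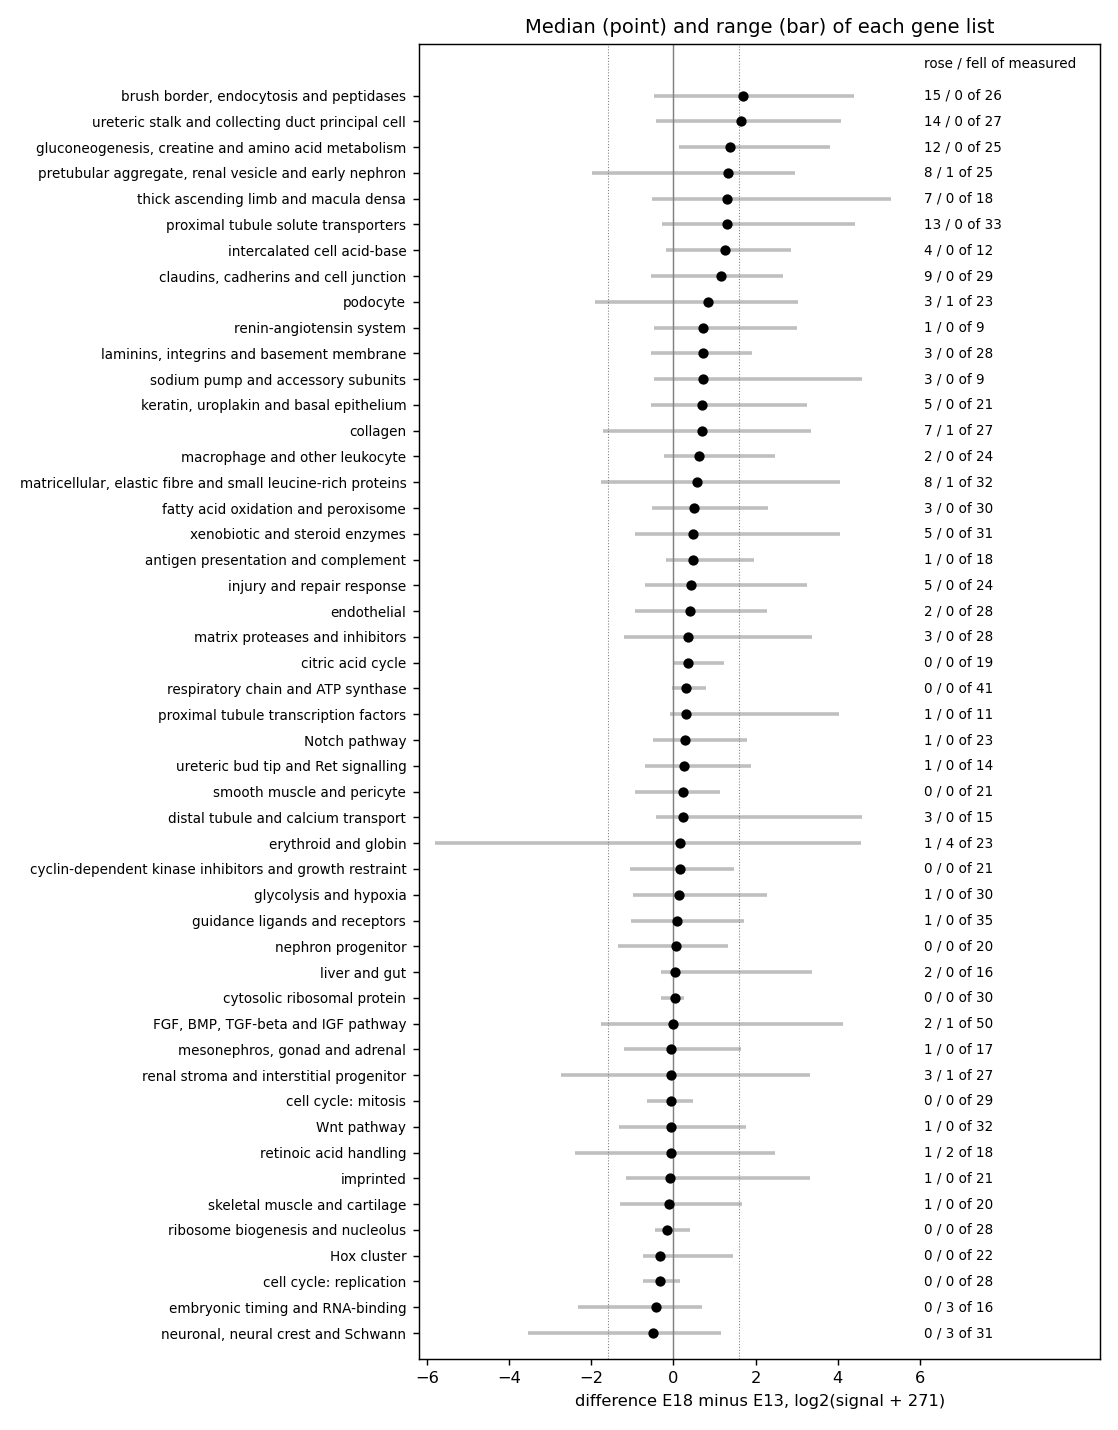
Difference between E18 and E13 on the log2(signal + 271) scale for 49 gene lists: the point is the median of a list's measured genes and the bar runs from the lowest to the highest. Dotted lines mark 3-fold, and the figures on the right give how many genes rose and fell of those measured; brush border, collecting duct and metabolism lists lie at the top, and neuronal and embryonic timing lists at the bottom.

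Signalling pathways were counted next. Of 32 Wnt pathway genes 1 rose and 0 fell, with a median of -0.068, and of 50 genes of the FGF, BMP, TGF-beta and IGF pathways 2 rose and 1 fell, with a median of -0.001. The Wnt gene that rose was Dkk2, an inhibitor made by stroma, at 374, 554 and 679 on the E13 arrays and 2323, 2645, 2039.8 and 2899.8 on the E18 arrays (1.78 ± 0.18, adjusted p = 1.44e-05; 1.14 with the constant 4 times as large, under 3-fold). Sfrp2, a secreted Wnt binder, was lower at E18 (-1.32 ± 0.19, adjusted p = 0.000329), under 3-fold, and the ligand genes Wnt2b (-0.01 ± 0.22), Wnt5a (0.45 ± 0.20) and Wnt5b (-0.12 ± 0.21) overlapped. Igfbp7, a secreted insulin-like growth factor binder that vessels also make, read 4579, 3388 and 3934 at E13 and 82577, 83158, 74315 and 58583 at E18. The stages lay far apart, and E18 replicate 4 was the lowest of its group (4.14 ± 0.15, adjusted p = 5.55e-10). Bmp3, an antagonist of BMP signalling, rose by 1.97 ± 0.28 (adjusted p = 0.000223), while the activin subunit gene Inhba went from 1462, 1581 and 1769 to 185, 252, 304 and 404 (-1.76 ± 0.24, adjusted p = 0.000146), with -1.53 within the second set and -0.89 for the mean of its probe sets. Fgfr4, a receptor for FGFs, was higher by 1.58 ± 0.20 (adjusted p = 9.69e-05), just under 3-fold, and called without E13 replicate 1 (1.68), E18 replicate 2 (1.63) or E18 replicate 4 (1.69). Fgf1 (-0.80 ± 0.19) was lower under 3-fold, and Fgf2 (0.00 ± 0.21) and Fgf7 (0.34 ± 0.29) overlapped.

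Of 23 Notch genes 1 rose, Heyl (1.78 ± 0.34, adjusted p = 0.00259), a target of the pathway, and 0 fell; the median was 0.271. The E13 arrays of Heyl read 1361, 224 and 274, replicate 1 far above the others, and the E18 arrays 2642, 2679, 2596 and 1627. Its call was lost without E13 replicate 2 (1.47) or replicate 3 (1.54), within the first set (0.83) and for the mean of its probe sets (0.97), so that without E13 replicate 3 the count was 0. Notch1 (1.45 ± 0.18, adjusted p = 7.01e-05) and the ligand gene Dll1 (1.34 ± 0.23, adjusted p = 0.00143) were higher at E18 under 3-fold. Jag1, another ligand, was higher by 1.44 ± 0.29 (adjusted p = 0.00374) and called without E13 replicate 2 (1.73), while the receptor genes Notch2 (-0.05 ± 0.26), Notch3 (-0.05 ± 0.28) and Notch4 (-0.45 ± 0.27) overlapped. Of 35 guidance ligands and receptors 1 rose and 0 fell, with a median of 0.081. It was the semaphorin gene Sema3b (1.72 ± 0.25, adjusted p = 0.000322; 0.77 with the constant 4 times as large, under 3-fold). Ntn1 (1.43 ± 0.17), which encodes netrin, and Sema3c (0.96 ± 0.11), another semaphorin, were higher under 3-fold, and the netrin receptor gene Unc5c was lower under 3-fold (-1.04 ± 0.19, adjusted p = 0.0016). The SLIT ligand genes Slit1 (0.37 ± 0.26), Slit2 (0.30 ± 0.25) and Slit3 (-0.04 ± 0.29) and the receptor gene Robo1 (-0.33 ± 0.22) overlapped.

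The stroma did not move as one. Of 27 stromal and interstitial genes, 3 rose, 1 fell and the median was -0.058; without E13 replicate 1 or 2, or E18 replicate 2 or 4, 2 fell. Tbx18, a T-box factor of the mesenchyme that forms the ureter wall, read 4545, 5192 and 4121 at E13 and 454, 498, 455 and 428 at E18. The arrays of each stage lay close together and the stages far apart (-2.74 ± 0.17, adjusted p = 1.21e-07). Foxp2, a forkhead factor in no list here, fell from 8819.9, 9369 and 9637 to 1112, 935, 951 and 1052 (-2.90 ± 0.14, adjusted p = 9.95e-09). Dcn (decorin), a proteoglycan that binds collagen, rose from 1319, 1789 and 3200.5 to 18619, 22675, 21123 and 27466 (3.32 ± 0.21, adjusted p = 1.18e-07), and Lox, which cross-links collagen and elastin, from 396, 385 and 398 to 2649, 7630.2, 3288 and 3015, with E18 replicate 2 far above the other E18 arrays (2.61 ± 0.29, adjusted p = 3.03e-05). Tcf21, a factor of kidney mesenchyme, differed by 0.59 ± 0.18 (adjusted p = 0.0501) and Meis1, a homeobox gene of cortical stroma, by -1.50 ± 0.15 (adjusted p = 1.34e-05), under 3-fold. Meis1 was called lower without E13 replicate 1 (-1.62) or E18 replicate 4 (-1.61). Fibin, a secreted protein gene, differed by -1.51 ± 0.23 and was called lower without E13 replicate 2 (-1.63) or E18 replicate 2 (-1.62). Rarb (-0.07 ± 0.11), a retinoic acid receptor, overlapped between stages.

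Retinoic acid, made in the stroma, keeps Ret on in the bud in the mouse. Of 18 genes of its handling 1 rose and 2 fell, with a median of -0.069. The synthesis gene of the stroma, Aldh1a2, was bright and overlapped between stages (-0.17 ± 0.16, adjusted p = 0.598), whereas Aldh1a1 rose, as given above. Stra6, the receptor that takes vitamin A into cells, went from 10429.7, 13194 and 16418 to 2080.3, 2361, 2394 and 2268 (-2.40 ± 0.14, adjusted p = 7.3e-08), but of its 5 probe sets 2 were called lower and the mean of the 5 was -1.51. Crabp1, which binds retinoic acid in the cytoplasm, went from 47517, 37705 and 37559 to 6639, 8843, 10290.3 and 6349.9 (-2.33 ± 0.18, adjusted p = 1.13e-06). Its relative Crabp2 differed by -1.58 ± 0.15 (adjusted p = 9.04e-06), just under 3-fold, and was called without E13 replicate 1 (-1.65) or E18 replicate 1 (-1.60), 3 (-1.61) or 4 (-1.62). The synthesis gene Aldh1a3 (0.38 ± 0.20) and the carrier gene Rbp4 (-0.17 ± 0.25) did not pass.

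Of 27 collagen genes 7 rose and 1 fell, with a median of 0.702, and of 32 matricellular, elastic fibre and small leucine-rich protein genes 8 rose and 1 fell, with a median of 0.582; without E13 replicate 1, 2 of the latter fell, the second being Vcan (versican), a large proteoglycan, at -1.66 against -1.17 ± 0.39 over all arrays (adjusted p = 0.0684). The chains of collagen VI, a beaded filament around cells, rose together: Col6a1 read 1122, 1164 and 1031 at E13 and 7289, 7875, 9184 and 8708 at E18 (2.63 ± 0.17, adjusted p = 1.32e-07) and Col6a3 724, 520.2 and 769.6 at E13 and 9370.2, 9912, 9807 and 8374 at E18 (3.36 ± 0.14, adjusted p = 1.65e-09). Col6a2 rose by 2.68 ± 0.21 (adjusted p = 1.27e-06), with 1.22 for the mean of its probe sets. Col14a1, a collagen on the surface of fibrils, rose by 3.30 ± 0.24 (adjusted p = 4.78e-07). The major fibril chains were bright from the start. Col1a1 went from 20839, 10048 and 11111 to 60797, 48776, 50853 and 37253 (1.85 ± 0.28, adjusted p = 0.00039), with 1.34 within the first set and 1.55 with the set as a covariate, below 3-fold. Col3a1 read 54469, 39661 and 51182 at E13 and 64620.4, 58544, 63175 and 60955 at E18 and did not pass (0.36 ± 0.15, adjusted p = 0.145). Col1a2, the partner chain of Col1a1, was higher by 1.41 ± 0.18 (adjusted p = 8.64e-05) and called without E13 replicate 1 (1.59). Col4a1 (1.11 ± 0.17), a basement membrane chain, was higher under 3-fold. Col9a1, a collagen of cartilage and some epithelia, fell from 20417, 19185 and 16508 to 4631, 4983, 6385 and 6039 (-1.72 ± 0.26, adjusted p = 0.000388; -1.52 within the second set). The cartilage collagen gene Col2a1 was bright at E13 (36127, 18570.1 and 14752) and lower at E18 (9477, 9283, 9298 and 6674), with a difference of -1.29 ± 0.37 (adjusted p = 0.0331), under 3-fold.

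The small proteoglycan gene Ogn led the matrix list. Ogn (mimecan) read 764, 719.5 and 458 at E13 and 8791, 19726, 16551 and 16305 at E18, with E18 replicate 1 the lowest of its group, and all 4 of its probe sets were called (4.05 ± 0.23, adjusted p = 5.48e-08). Mgp, an inhibitor of calcification, rose from 1313, 1169.7 and 906 to 14817, 16494, 14198 and 12887 (3.41 ± 0.12, adjusted p = 4.76e-10) and Spp1 (osteopontin), which tubules secrete, from 910.2, 620.3 and 862 to 10600.1, 9687, 10118 and 9049 (3.25 ± 0.16, adjusted p = 1.55e-08). Tnc (tenascin C) rose by 2.94 ± 0.27 (adjusted p = 4.77e-06), from 1337, 557 and 1053 to 6727, 14616, 8107 and 8235, and like Lox it was highest on E18 replicate 2. Fn1 (fibronectin) differed by 0.80 ± 0.13 (adjusted p = 0.000717) and Eln (elastin) by 0.67 ± 0.34 (adjusted p = 0.253); Fbn1 (0.88 ± 0.20), of elastic microfibrils, was higher under 3-fold. Efemp1, a fibulin, was the one that fell (-1.76 ± 0.18, adjusted p = 1.64e-05), and was not called with the constant 4 times as large. Of 28 basement membrane and integrin genes 3 rose and 0 fell, with a median of 0.726; the count was 0 with the constant 4 times as large and 1 within the first set. They were Itgb6, an integrin chain of epithelia, by 1.91 ± 0.20 (adjusted p = 1.42e-05), Lama1 by 1.89 ± 0.19 (adjusted p = 1.08e-05; 1.58 within the first set) and Lamc1 by 1.59 ± 0.14 (adjusted p = 3.77e-06), laminin chains of the early epithelium. The call of Lamc1 sat at the limit of 3-fold and was lost without E13 replicate 3 (1.49) or E18 replicate 2 (1.52), with the set as a covariate (1.51) and within either set (1.52 and 1.49). Itga3, an integrin chain that binds laminin, was higher by 1.28 ± 0.27 (adjusted p = 0.0053) and called without E13 replicate 1 (1.67). The laminin genes Lama2 (1.01 ± 0.22) and Lama4 (0.97 ± 0.15) were higher under 3-fold, and Lama3 (-0.10 ± 0.27) overlapped.

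Of 28 matrix proteases and inhibitors 3 rose and 0 fell, with a median of 0.363, led by Plau (urokinase), from 620.2, 393 and 473 to 6889.9, 9522, 7333 and 6847 (3.37 ± 0.28, adjusted p = 1.86e-06). The gelatinase gene Mmp9 rose by 1.91 ± 0.36 (adjusted p = 0.00216), with 1.16 within the second set and 1.47 for the mean of its probe sets, and Ctsk (cathepsin K), a collagen-cleaving protease, by 1.85 ± 0.30 (adjusted p = 0.000719), with 1.56 within the first set. Timp3 (1.21 ± 0.12), an inhibitor bound to matrix, was higher under 3-fold, and the other metalloproteinase genes Mmp2 (0.34 ± 0.16), Mmp11 (-0.04 ± 0.22) and Mmp14 (-0.42 ± 0.14) overlapped.

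**Figure D4:**
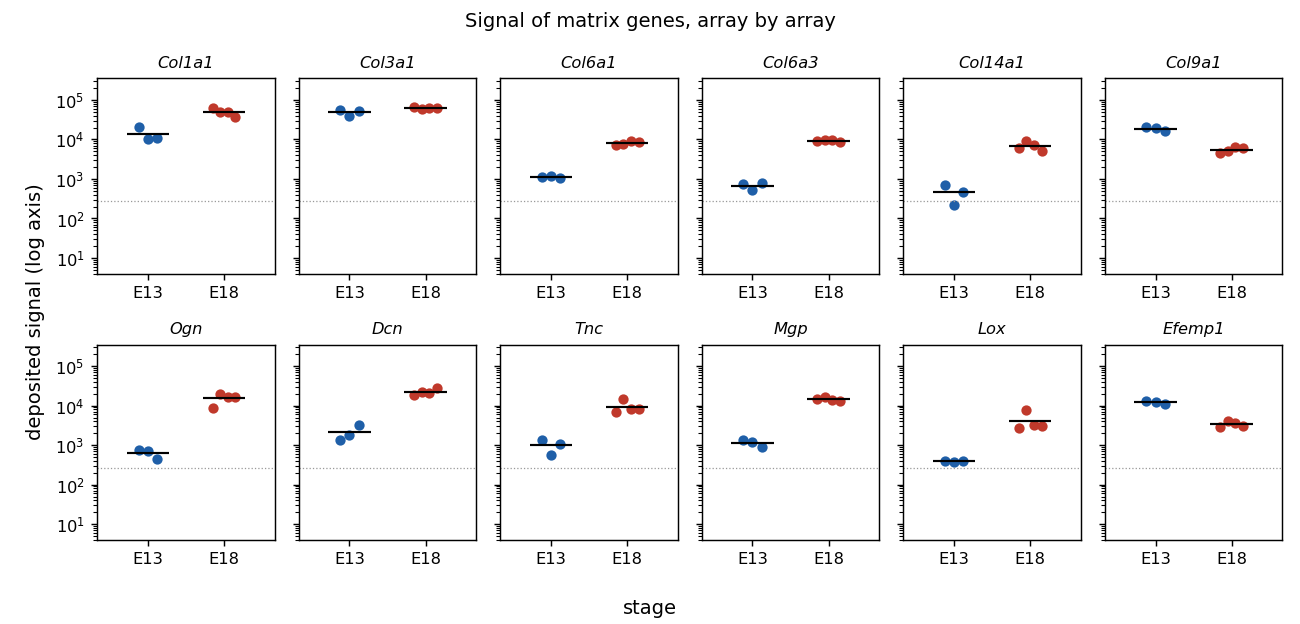
Deposited signal (log axis) of 12 matrix genes on each E13 array (blue, n = 3) and each E18 array (red, n = 4), with means as black bars and 271 as the dotted line. Collagen VI chains, Col14a1, Ogn, Dcn, Tnc, Mgp and Lox lie apart between stages, Col3a1 is bright at both, and Col9a1 and Efemp1 are lower at E18.

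Of 28 endothelial genes 2 rose and 0 fell, with a median of 0.408. Lyve1, a hyaluronan receptor of lymphatic vessels and of some macrophages, read 2385, 1989.6 and 2517 at E13 and 11643, 14242, 13154 and 10151 at E18 (2.29 ± 0.14, adjusted p = 1.21e-07). The other gene, Ehd3 of glomerular capillaries (1.60 ± 0.26, adjusted p = 0.000785), lay at the limit of 3-fold and lost its call without any one of E13 replicate 2 (1.40), E13 replicate 3 (1.49) or E18 replicates 2, 3 and 4 (1.50, 1.53 and 1.58), or within the first set (0.97). Kdr, the main receptor for VEGF, overlapped between stages (0.24 ± 0.26, adjusted p = 0.63), and Pecam1 was higher under 3-fold (0.90 ± 0.21, adjusted p = 0.0101), as was Eng (1.06 ± 0.22), a TGF-beta co-receptor. The receptor genes Flt1 (-0.11 ± 0.25) and Tek (0.10 ± 0.14) and the clotting factor gene Vwf (-0.94 ± 0.30) overlapped. Of 21 smooth muscle and pericyte genes 0 were called by limma, and 6 passed the adjusted p with higher values. Acta2, smooth muscle actin, overlapped between the stages (0.71 ± 0.34, adjusted p = 0.217), as did the contractile genes Myh11 (0.65 ± 0.32) and Tagln (0.23 ± 0.26) and their coactivator gene Myocd (-0.94 ± 0.37); Cnn1 (-0.70 ± 0.29) did not pass either. Cnn2 (1.13 ± 0.21), Mylk (1.12 ± 0.10) and Smtn (1.10 ± 0.17), of contraction, were higher under 3-fold. Of 9 genes of the renin-angiotensin system, which controls blood pressure, 1 rose and 0 fell, with a median of 0.73, or 2 rose without E13 replicate 2 or 3 or E18 replicate 1 or 4. Enpep, which cleaves angiotensin II on the brush border, went from 549, 1175 and 838 to 9286, 6024, 9658 and 10219.8 (3.02 ± 0.22, adjusted p = 5.94e-07), and the receptor gene Agtr1a was higher under 3-fold (1.48 ± 0.16, adjusted p = 2.69e-05). The second was the receptor gene Agtr1b, which was higher by 1.58 ± 0.18 (adjusted p = 3.71e-05) and reached 1.60, 1.64, 1.62 and 1.59 without those arrays in turn. Agtr2 (0.97 ± 0.21), the other receptor type, was higher under 3-fold, and Agt (0.30 ± 0.25), the precursor, overlapped.

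Leukocyte genes gave 2 risers of 24 and 0 that fell, with a median of 0.626, and their summed signal went from between 13570.0 and 16366 at E13 to between 32728 and 38865 at E18. Lyz2, the lysozyme of macrophages, read 1075, 929.7 and 1219 at E13 and 6737, 8812, 7645 and 5822 at E18 (2.47 ± 0.14, adjusted p = 6.13e-08). S100a9, a neutrophil protein, rose by 2.14 ± 0.51 (adjusted p = 0.012), and without E13 replicate 2 or 3 it missed the adjusted p (2.01 and 2.06), which left 1 riser. S100a9 was not called within the first set (1.90) or the second (1.78) either. The complement genes C1qa and C1qc, made by tissue macrophages, were higher by 1.29 ± 0.27 and 1.28 ± 0.27 (adjusted p = 0.00557 and 0.00564), under 3-fold, and the pan-leukocyte gene Ptprc overlapped between stages (0.41 ± 0.26, adjusted p = 0.357). Of the macrophage genes, Csf1r (0.51 ± 0.15) was higher under 3-fold, and Cd68 (0.40 ± 0.30) and Cd14 (0.46 ± 0.36) did not pass. Of 18 antigen presentation and complement genes 1 rose and 0 fell, with a median of 0.467. It was C1r (1.95 ± 0.19, adjusted p = 9.55e-06; not called with the constant 4 times as large), whose partner C1s (1.39 ± 0.21) was higher under 3-fold, as was B2m (1.48 ± 0.14), the light chain of MHC class I. The MHC class II genes RT1-Da (0.25 ± 0.19), RT1-Ba (0.63 ± 0.42) and RT1-Bb (1.10 ± 0.69) did not pass. Cd74, which guides MHC class II, differed by 0.74 ± 0.18 (adjusted p = 0.0144) and stood at 579 ± 84.9 at E18 (SD, n = 4) against 50847 ± 2124 at Wk4 (SD, n = 3).

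Globin genes changed in both directions. Hbz, the embryonic alpha-like chain, read 110258, 95855 and 132055 at E13 and 2821, 946, 1829.9 and 1741 at E18, the lowest on replicate 2 (-5.81 ± 0.24, adjusted p = 1.91e-09), and Hbg1, an embryonic beta-like chain, 92106, 83833 and 114903 at E13 and 2506, 4502, 3372 and 4060.4 at E18 (-4.66 ± 0.23, adjusted p = 1.43e-08). Hbe1, another embryonic beta-like chain, fell from 111445, 127747 and 141464 to 59906, 21106, 39885 and 47485 (-1.68 ± 0.27, adjusted p = 0.000716), and was no longer called without E18 replicate 2 (-1.38), with the set as a covariate (-1.54) or within either set (-1.59 and -1.50). Hbe2 fell by a difference of -1.66 ± 0.32 (adjusted p = 0.00304), and lost its call without E13 replicate 1 (-1.53), E18 replicate 2 (-1.43) or E18 replicate 4 (-1.52) and with the replicate number as a block (-1.52); within either set alone the difference was larger (-1.79 and -1.94) but missed the adjusted p. The adult beta chain gene Hbb went the other way, from 6265, 5665 and 6204 to 152343, 151046, 142285 and 153218 (4.57 ± 0.11, adjusted p = 2.58e-11). The list of 23 erythroid genes held 4 that fell and 1 that rose, with a median of 0.165; leaving out E18 replicate 2 left 2 that fell. Other genes of red cell making stayed under the limit: Alas2, of heme synthesis, was higher under 3-fold (1.44 ± 0.16, adjusted p = 2.28e-05), and the erythroid factor gene Gata1 did not pass (0.17 ± 0.21, adjusted p = 0.716). Near-identical globin copies could share probes, so the values of single globin genes are uncertain.

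Among genes in no list, Xist aside, the steepest falls were those of Fndc3c1, Oprk1 and Foxp2. Fndc3c1, a fibronectin-domain gene, read 16408, 17137 and 16525 at E13 and 1613, 905, 912 and 976 at E18, with replicate 1 the highest of the later stage (-3.66 ± 0.22, adjusted p = 9.17e-08). Oprk1, the kappa opioid receptor, went from 6810.1, 7279 and 5998 to 512, 372, 439 and 539 (-3.24 ± 0.24, adjusted p = 5.98e-07), and Igdcc3, an adhesion molecule of the immunoglobulin family, from 12723, 5423 and 7554 to 1205, 884, 991 and 574 (-2.84 ± 0.26, adjusted p = 4.35e-06). Ebf2, a helix-loop-helix factor, fell by a difference of -2.43 ± 0.28 (adjusted p = 4.52e-05), Cfap161, a cilium-associated gene, by -2.42 ± 0.27 (adjusted p = 2.71e-05) and A2m (alpha-2-macroglobulin), a protease inhibitor, by -2.26 ± 0.21 (adjusted p = 6.08e-06). Cdh22, a cadherin, fell by -2.29 ± 0.26 (adjusted p = 4.03e-05), with -1.36 for the mean of its probe sets.

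Some of the genes that fell are used by nerve cells. In a list of 31 neuronal, neural crest and Schwann cell genes 0 rose and 3 fell, 10 passed the adjusted p with lower values and 1 with higher values, and the median of -0.507 was the lowest of all 49 lists. Isl1, a LIM homeobox factor of sensory and sympathetic neurons and, in the mouse, of mesenchyme beside the ureter, read 3231, 3822 and 6632 at E13 and 80.5, 139, 67.1 and 242 at E18 (-3.54 ± 0.39, adjusted p = 2.66e-05). Chgb, a protein of secretory granules, went from 1557, 1843 and 2855 to 177, 223, 284 and 209 (-2.22 ± 0.23, adjusted p = 1.61e-05), and Dbh, which makes noradrenaline, from 1736, 1295 and 1399 to 152, 314, 174 and 345 (-1.77 ± 0.28, adjusted p = 0.000572; -1.39 within the second set). The neural crest and Schwann cell factor gene Sox10 was dim, at 349.6, 346 and 423 at E13 and 32.7, 103, 67.7 and 81.0 at E18. Phox2a (-0.95 ± 0.26), a factor of sympathetic neurons, was lower under 3-fold, Th (-0.60 ± 0.23), of the same noradrenaline pathway as Dbh, overlapped, and Stmn2, a neuronal growth protein gene, differed by -1.53 ± 0.34 (adjusted p = 0.00748) and was called without E13 replicate 2 (-1.67). The summed signal of the list lay between 37695 and 44407 at E13 and between 26363 and 28923 at E18. The part of nerve cells in these differences was not tested.

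**Figure D5:**
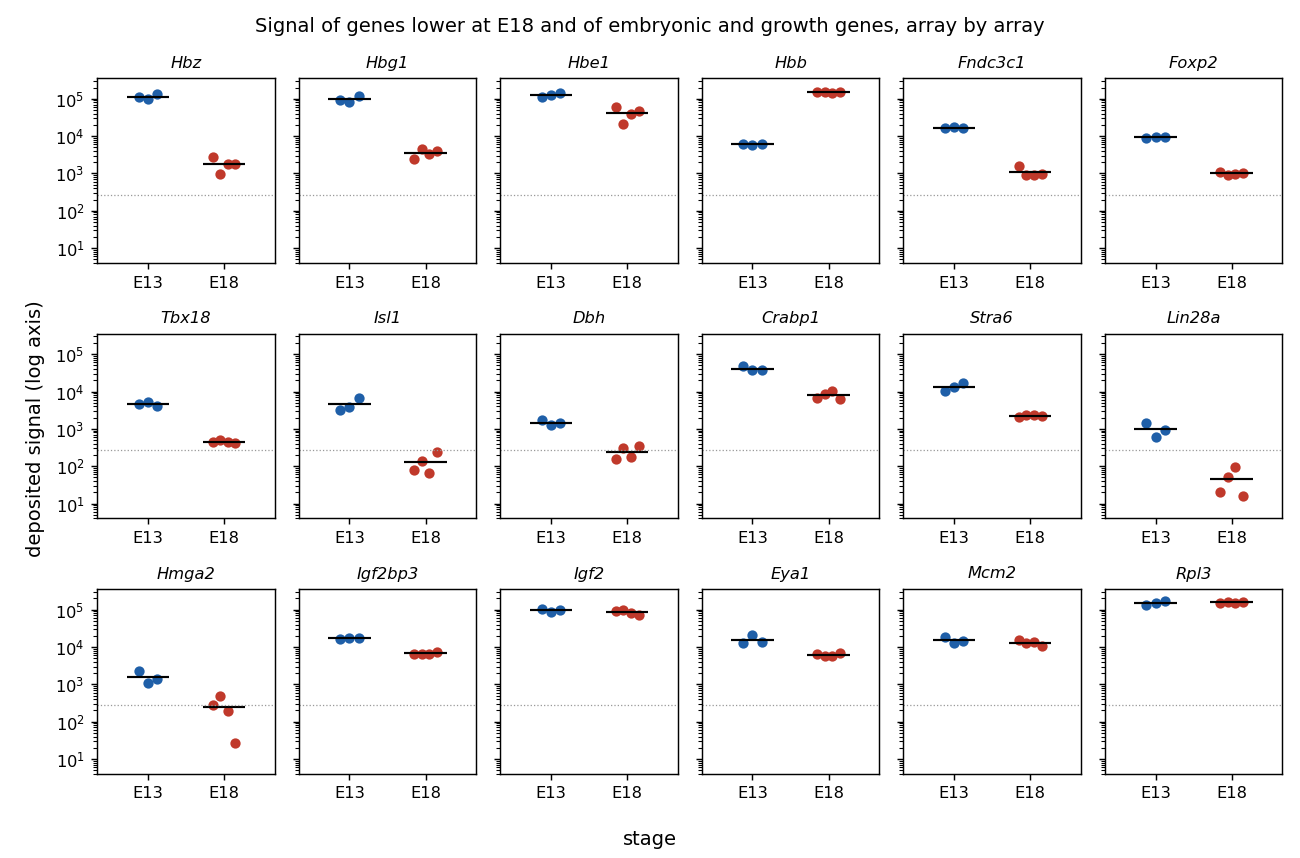
Deposited signal (log axis) of 18 genes on each E13 array (blue, n = 3) and each E18 array (red, n = 4), with means as black bars and 271 as the dotted line. Hbz, Hbg1, Fndc3c1, Foxp2, Tbx18 and Isl1 fall without overlap, Hbb lies far higher at E18, and Igf2, Mcm2 and Rpl3 sit at like levels in both stages.

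Of 16 genes that mark embryonic timing, 0 rose and 3 fell, with a median of -0.434, and 7 passed the adjusted p with lower values. Lin28a, an RNA-binding protein that blocks let-7 microRNAs, read 1466, 607 and 945 at E13 and 20.8, 50.7, 96.4 and 16.4 at E18, near the bottom of the scale (-1.96 ± 0.25, adjusted p = 0.000101). Hmga2, a chromatin protein and let-7 target, went from 2225, 1068 and 1379 to 276, 496, 196 and 27.4 (-1.85 ± 0.34, adjusted p = 0.00197). The third was Crabp1, given above. The RNA-binding protein gene Igf2bp3 was lower under 3-fold, at 15952, 17784 and 17900.4 and 6582, 6537, 6349 and 7379 (-1.32 ± 0.15, adjusted p = 2.98e-05), and Igf2bp2 was also lower (-0.39 ± 0.12, adjusted p = 0.0451). Igf2bp1 is given above.

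Of 21 imprinted genes 1 rose, Dcn, or 2 without E13 replicate 1, and 0 fell, with a median of -0.093. Igf2, the fetal growth factor, read 106633, 86168 and 96165 at E13 and 92489, 97756, 83190.0 and 71127 at E18 (-0.17 ± 0.20, adjusted p = 0.683), and its neighbour H19 overlapped likewise (0.21 ± 0.24, adjusted p = 0.656). At Wk4 Igf2 stood at 1613 ± 697 (SD, n = 3). The second riser without E13 replicate 1 was the potassium channel gene Kcnq1 (1.60), which differed by 1.41 ± 0.23 over all arrays (adjusted p = 0.00069). Meg3 (-1.15 ± 0.34), a long noncoding RNA, and Impact (-0.79 ± 0.12) were lower under 3-fold, and Mest (0.20 ± 0.28) and Plagl1 (0.14 ± 0.19) overlapped. Of 22 Hox genes 0 were called by limma, or 1 without E13 replicate 1, and the median was -0.321. That gene was Hoxd8 (1.60), which differed by 1.45 ± 0.14 over all arrays (adjusted p = 1.05e-05). Hoxd9 (0.75 ± 0.19) was higher and Hoxd3 (-0.71 ± 0.18) lower, both under 3-fold, and Hoxa5 (-0.74 ± 0.28), Hoxa7 (-0.42 ± 0.20), Hoxa9 (-0.34 ± 0.17) and Hoxa10 (-0.14 ± 0.09) did not pass.

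Of 28 DNA replication genes 0 were called by limma, 7 passed the adjusted p with lower values and 0 with higher values, with a median of -0.327. Mcm6, a helicase subunit, differed by -0.67 ± 0.15 (adjusted p = 0.00692), and Tyms (-0.75 ± 0.18), of thymidine synthesis, was lower too. The helicase subunit genes Mcm2 (-0.21 ± 0.17), Mcm3 (-0.19 ± 0.13), Mcm4 (-0.30 ± 0.15) and Mcm5 (-0.20 ± 0.16) and the S-phase cyclin genes Ccne1 (-0.54 ± 0.30) and Ccne2 (-0.58 ± 0.23) did not pass. Of 29 mitosis genes 0 were called, 2 passed the adjusted p with lower values and 1 with higher values, with a median of -0.061; Cdk1, which drives entry into mitosis, read 18339, 20409 and 22301 at E13 and 17901, 16713, 18768 and 20400.0 at E18. The kinase gene Aurka (-0.54 ± 0.16) was lower and Cdkn3 (0.49 ± 0.15), a phosphatase of CDKs, higher, both under 3-fold. The cyclin genes Ccnb1 (-0.44 ± 0.15) and Ccnb2 (-0.05 ± 0.15) and the mitotic genes Cdc20 (-0.15 ± 0.15), Kif20a (-0.64 ± 0.21) and Ttk (-0.54 ± 0.22) did not pass. Of 21 inhibitors of the cycle and related genes 0 were called by limma, or 1 without E13 replicate 2 or 3 or E18 replicate 2, and 6 passed the adjusted p with higher and 4 with lower values. That gene was Ccnd1, cyclin D1, at 1.68, 1.62 and 1.60 without those arrays in turn and 1.46 ± 0.25 with all of them (adjusted p = 0.00113). Rb1 (1.12 ± 0.22), the retinoblastoma gene, was higher, and Mycl (-1.03 ± 0.18) was lower, both under 3-fold. The brightest probe set of Gas6 was lower by the adjusted p (-1.07), another of its 3 probe sets passed with higher values, and the mean of the 3 was 0.133, so no direction is given for Gas6. Cdkn1c, an imprinted inhibitor, read 82797, 94584 and 101751 at E13 and 88399.7, 92222, 91101 and 98306 at E18 (adjusted p = 0.994), and the inhibitor genes Cdkn1a (0.43 ± 0.17), Cdkn1b (0.40 ± 0.14) and Cdkn2a (0.15 ± 0.25) overlapped. Cytosolic ribosomal protein genes gave 0 of 30 past the adjusted p in either direction, with differences from -0.313 (Rpl30) to 0.253 (Rpl18). Rpl3, Rpl4, Rpl5 and Rpl6 differed by 0.04 ± 0.11, 0.08 ± 0.10, 0.03 ± 0.10 and 0.01 ± 0.09, Rps28 by 0.23 ± 0.11 and Rpl28 by -0.22 ± 0.22. Ribosome biogenesis genes gave 0 calls of 28 and a median of -0.161; Nop58 (-0.43 ± 0.12) and Wdr12 (-0.46 ± 0.12) were lower under 3-fold, and Ncl (-0.28 ± 0.10), Fbl (-0.05 ± 0.10), Nop56 (-0.05 ± 0.12), Utp15 (-0.42 ± 0.16) and Bop1 (0.41 ± 0.26) overlapped.

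Genes of energy metabolism had mostly positive differences under 3-fold. Of 41 genes of the respiratory chain and ATP synthase, 0 were called, 15 passed the adjusted p with higher values and 0 with lower values, and the median was 0.297. Of 19 citric acid cycle genes 0 were called and 11 passed with higher values, and 0 with lower (median 0.349). Atp5f1d, a subunit of ATP synthase, differed by 0.80 ± 0.15 (adjusted p = 0.00259), the other respiratory chain genes Uqcrc1 (0.60 ± 0.12), Cox8a (0.57 ± 0.11) and Ndufa1 (0.35 ± 0.10) were higher under 3-fold, Ndufa2 (0.35 ± 0.12), Ndufa4 (0.13 ± 0.11) and Ndufa5 (0.53 ± 0.21) did not pass, and Idh3a, a subunit of isocitrate dehydrogenase, differed by 1.23 ± 0.16 (adjusted p = 0.000123). Among the other citric acid cycle enzymes and their feeder pyruvate dehydrogenase, Ogdh (0.79 ± 0.11), Suclg2 (0.72 ± 0.09), Pdha1 (0.64 ± 0.11) and Idh1 (0.46 ± 0.10) were higher under 3-fold, and Cs (0.38 ± 0.16), Aco1 (0.12 ± 0.13) and Idh2 (0.26 ± 0.09) did not pass. Of 30 genes of fatty acid oxidation and peroxisomes 3 rose, 0 fell, and 18 passed the adjusted p with higher values, with a median of 0.49. Cpt1a, which admits long-chain fatty acids to mitochondria, went from 795, 1331 and 838 to 6403, 4613, 5558 and 7145 (2.31 ± 0.19, adjusted p = 1.85e-06), Acsm2, a medium-chain activating enzyme, rose by 2.12 ± 0.25 (adjusted p = 5.04e-05) and Pecr, a peroxisomal reductase, by 1.74 ± 0.11 (adjusted p = 1.46e-07). The dehydrogenase genes Acadm (1.01 ± 0.09), Acadl (0.52 ± 0.12) and Acadvl (0.74 ± 0.11) and the thiolase gene Acaa2 (1.27 ± 0.12) were higher under 3-fold, and Acads (0.45 ± 0.17) overlapped. Of 30 glycolysis and hypoxia genes 1 rose, Ndrg1 (2.29 ± 0.18, adjusted p = 1.37e-06), a stress response gene, and 0 fell, with a median of 0.144. Pfkp (1.42 ± 0.29), a phosphofructokinase, and Vegfa (1.13 ± 0.24), the vessel growth factor, were higher under 3-fold, and Adm (1.22 ± 0.46), Hk1 (0.64 ± 0.21), Hk2 (-0.51 ± 0.27), Gpi (0.49 ± 0.26) and Pfkl (0.43 ± 0.53) did not pass. Centring each array on its median moved the median of all genes from 0.013 to -0.073, which bears on medians near 0 such as those of the mitosis, imprinted and pathway lists.

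Gene families were also counted by the stem of their symbols. Of 295 solute carriers 17 rose, 1 fell, and 76 passed the adjusted p with higher values against 7 with lower. Of 10 annexins, calcium-dependent membrane binders, 3 rose with a median of 1.28, led by Anxa4, named after its values were seen (3.52 ± 0.17, adjusted p = 1.5e-08). Of 20 vacuolar proton pump genes 2 rose, and of 57 cytochromes P450 1 rose. Of 220 zinc finger genes named Zfp 0 were called, while 5 passed the adjusted p with higher values and 22 with lower values, and of 37 splicing factor genes 0 were called, with 0 passing higher and 7 lower. Neither proteasome genes (0 called of 42) nor mitochondrial ribosome genes (0 of 73) held a call. Among genes in no list the largest rises were those of Defb1, an epithelial antimicrobial peptide, from 45.8, 18.5 and 165 to 4961, 6597, 5043 and 5294 (4.06 ± 0.16, adjusted p = 1.65e-09), and Tspan8, a tetraspanin of epithelia, from 1211, 1048 and 1347 to 18345, 19601, 19076 and 21399.5 (3.76 ± 0.19, adjusted p = 2.45e-08).

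Markers of other tissues were also counted. Of 16 liver and gut genes 2 rose and 0 fell, and 8 of the 16 were dim on all 7 arrays. The summed signal of all 16 went from between 3724 and 4458 to between 8020.0 and 9899. The main liver product Alb overlapped between stages (0.73 ± 0.51, adjusted p = 0.426). Afp, alpha-fetoprotein, was near the bottom at E13 (65.8, 13.4 and 44.0) and read 3216, 2669.8, 2944 and 2937 at E18 (3.37 ± 0.33, adjusted p = 9.1e-06), and Vil1 (villin), which kidney brush border shares with gut, rose by 1.91 ± 0.20 (adjusted p = 1.85e-05). Apoa1 (0.07 ± 0.18), Apoa2 (0.19 ± 0.20) and Serpina1 (0.80 ± 0.33), of blood plasma proteins, did not pass. Both risers, Afp and Vil1, count in the sum, and the part of liver or gut cells in it was not tested. The steroid enzyme gene Cyp17a1 of adrenal and gonad stayed at 26.5, 16.6 and 31.9 and 15.6, 52.7, 14.3 and 12.8. Of 17 mesonephros, gonad and adrenal genes 1 rose, Krt19 (1.65 ± 0.20, adjusted p = 6.82e-05), an epithelial keratin that the collecting duct list also holds, and 0 fell. Krt19 reached 1.51 with the set as a covariate and 1.35 within the second set, below 3-fold. The count ran from 0 to 3 when single arrays were left out: 0 without E13 replicate 2 (Krt19 at 1.50) or E18 replicate 2 (1.57), 3 without E13 replicate 3, and 2 without E18 replicate 1, 3 or 4. The genes that came in were Emx2, given above, and Msln (mesothelin), which differed by 1.51 ± 0.23 over all arrays (adjusted p = 0.000409) and by 1.65, 1.60 and 1.59 without E13 replicate 3, E18 replicate 1 and E18 replicate 3. Nr0b1 (-1.20 ± 0.23), of adrenal and gonad, was lower under 3-fold, and the steroid genes Nr5a1 (-0.16 ± 0.26), Star (-0.08 ± 0.26) and Cyp11a1 (0.53 ± 0.19) did not pass. Of 20 skeletal muscle and cartilage genes 1 rose, the muscle gene Tnnt2 (1.68 ± 0.24, adjusted p = 0.000283), which did not reach 3-fold for the mean of its probe sets (0.90), with quantile normalization (1.57) or within the first set (1.55), and 0 fell. Hapln1 (-1.06 ± 0.21), of cartilage matrix, was lower and Tnnc1 (0.83 ± 0.19) higher, both under 3-fold, while the myogenic genes Myod1 (-0.04 ± 0.17), Myog (-0.32 ± 0.21) and Myf6 (-0.26 ± 0.19) and the actin gene Acta1 (-0.17 ± 0.34) overlapped. Among 24 injury and repair genes 5 rose, and the tubular injury marker Havcr1 was not among them (-0.17 ± 0.32, adjusted p = 0.821), while Lcn2, another, rose by 1.91 ± 0.22 (adjusted p = 3.55e-05). Besides Spp1, the others were Lgals3, a galectin, at 2.17 ± 0.21 (adjusted p = 8.72e-06), S100a6, a calcium-binding protein, at 2.06 ± 0.19 (adjusted p = 5.55e-06) and Clu (clusterin) at 1.90 ± 0.14 (adjusted p = 5.29e-07), for which the mean of the probe sets was 0.83.

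For scale, levels at the later stage and in culture are given beside those above, without a test. Slc34a1 stood at 6329 ± 1623 at E18 (SD, n = 4), 137565 ± 16100.1 at Wk4 (SD, n = 3) and 541 ± 382 in recombined tissue (SD, n = 2). Hnf4a stood at 4820.5 ± 870.3, 64118 ± 4067 and 33.9 ± 4.66 in the same groups. Aqp2 stood at 5828 ± 2877, 31680.1 ± 2094 and 77.6 ± 5.95. Ogn, in contrast, stood at 15343 ± 4638, 13513 ± 1254 and 20388 ± 5638, against 647 ± 165 at E13 (SD, n = 3). Tspan8 had the highest mean at E18 of the 4 groups, at 19605 ± 1302 against 7713 ± 499 at Wk4, 3597 ± 2023 in recombined tissue and 1202 ± 149.8 at E13.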

How the data were processed

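RNA of rat kidney was hybridised to Affymetrix arrays of 31042 probe sets and 57 controls, 12 arrays in all. Per the labels, the deposited values are signal intensities, 1 per probe set, on a linear scale; GCOS is named in the submitters' processing notes, its version and algorithm not given in the sources used here. All deposited arrays share 1 trimmed mean, as their values show. No 2 of them held identical values, and their number limits the precision of every result.

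Intensities were turned to log2(signal + 271), 271 being the 25th percentile of all values. limma 3.58.1 in R 4.3.3 (lmFit, eBayes with an intensity trend) was fitted to all probe sets and 12 arrays with group means, with Benjamini-Hochberg adjustment. Calls took an adjusted p of 0.05 with a change of 3-fold or more. The steps were tested on simulated data. Probe sets were named from the platform annotation: 20826 had 1 symbol, 436 several and 9780 none. Symbols were brought up to date with RefSeq GRCr8. Each of 14217 genes was read from its probe set with the highest mean. Of 4525 genes with several probe sets, 3 had probe sets called in opposite directions by adjusted p. Of 111 called genes with several probe sets, 24 had all of them called the same way. Amn, Col6a3, Isl1 and Cpt1a, for instance, each had 1 of 2 called.

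The 49 lists, the symbol families and the comparison were chosen with earlier results of these data known. Genes named were the 15 highest and 15 lowest called genes whose stages do not overlap, unnamed clones left out, and in each list its first 4 members and the 4 with the largest differences, with other members as examples; 1 podocyte gene is not reported here. Alternatives were another pseudocount, scaling, filter, variance model, call rule, gene summary, array set as a covariate or alone, replicate block, and each array left out. Counts of lists are given without a test of the list.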

Additional observations from a re-analysis of the deposited data

Results flagged for a closer look

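On 1 of the 4 E18 arrays the signal of 34 of 373 named genes lay so far from the other E18 arrays that the gap exceeded Dixon's limit, which chance alone passes in about 1 of 20 groups. The 3 E13 arrays are too few for that comparison. E18 replicate 1 was high for Fndc3c1 at 1613 against 905 to 976, Myf6 at 143 against 7.38 to 21.5 and Nop58 at 28058 against 26397 to 26502. E18 replicate 1 was low for Crym at 5115 against 8709.6 to 9225. E18 replicate 2 was high for Cyp17a1 at 52.7 against 12.8 to 15.6, Msln at 2633 against 1317 to 1423, Sostdc1 at 18186 against 12566 to 12577 and Tagln at 14488 against 6646 to 7515. E18 replicate 2 was also high for Vwf at 851 against 381 to 435 and Xist at 52818 against 18.97 to 55.9. E18 replicate 2 was low for Aqp2 at 1619.7 against 6619.7 to 8106, Cltrn at 809 against 2093 to 2404, Crabp2 at 6945 against 8889.8 to 9243 and Eif2s3y at 4.94 against 12751 to 19792. E18 replicate 2 was also low for Lama2 at 2119.9 against 2402 to 2463, Notch4 at 141 against 295 to 307, Pdzk1 at 5752 against 8340.2 to 8826 and Slc47a1 at 978 against 1659 to 1723. E18 replicate 3 was high for Alpl at 664 against 49.4 to 111 and Aurka at 4835 against 3904 to 3967. E18 replicate 4 was high for Dab2 at 39076 against 23552 to 24753, Dsp at 7489.7 against 6808 to 6905, Jag1 at 12676 against 7025 to 7459.6 and Nr1h4 at 379 against 78.2 to 113. E18 replicate 4 was also high for Slc5a1 at 381 against 286 to 301 and Tfcp2l1 at 10349.9 against 7620.2 to 7812. E18 replicate 4 was low for Acads at 2997 against 4609 to 4968, Atp5f1d at 19337 against 27843 to 28795, Col2a1 at 6674 against 9283 to 9477 and Heyl at 1627 against 2596 to 2679. E18 replicate 4 was also low for Hoxa5 at 4317 against 7057 to 7312, Hoxd9 at 5529.9 against 7984 to 8347, Krt7 at 4325 against 4823 to 4928 and Notch3 at 632 against 1097 to 1148. E18 replicate 2 is the array that carried Xist without Eif2s3y, and E18 replicate 4 is alone among E18 arrays in its set; the part of sex and of the set in these values was not tested.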

How the results depend on the processing

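Over all arrays 437 probe sets rose and 90 fell. A limit of 2-fold gave 1174 and 335, no limit on the fold 2664 and 1467, no pseudocount 902 and 252, and a pseudocount 4 times as large 150 and 38. Leaving out 1 array gave 433 to 465 higher and 86 to 133 lower. Every other setting run moved both counts by less than 1.5 times. Among the named genes, to which this check was limited, no called gene changed direction. The median of all genes, 0.013, became -0.073 with median centring, -0.011 with the set as a covariate, and -0.003 and -0.011 within the sets. Of the calls, 82.9% were higher, 64.5% with no limit on the fold and 77.3% to 83.8% under the other settings. The replicate numbers in the labels do not pair the arrays: deviations of same-numbered E13 and E18 arrays correlated at 0.236, -0.132 and -0.104. With the number as a replicate block 465 rose and 114 fell. Of 373 named genes 132 were called; 75 remained called with the pseudocount 4 times as large, 118 and 118 within the sets alone, 124 with the set as a covariate and 113 when the probe sets of a gene were averaged. With that pseudocount the risers of the proximal tubule transporters went from 13 to 4, of the brush border from 15 to 8, of the metabolic enzymes from 12 to 5, of the principal cells from 14 to 8, of the thick ascending limb from 7 to 3, of the early nephron from 8 to 4 and of the junctions from 9 to 3. The risers of the bud tip, Notch, Wnt, guidance, laminin and integrin, complement, mesonephros and muscle lists then numbered 0, as did the genes that fell in the growth factor, matricellular, podocyte and early nephron lists. A signal below 271 bounds what can be measured: such genes have compressed differences. The cause of these shifts was not tested.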
